A study of Bos taurus with 18 samples.

Results

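MicroRNA precursor probe sets on a bovine whole-transcript array were described in the liver of 18 multiparous Holstein cows. They were chosen as the probe sets whose platform annotation gives 1 gene symbol that begins with MIR and a digit or with MIRLET, and whose mean over all 18 arrays reached the 25th percentile of all probe-set means. That limit is a log2 value of 4.35. Of 528 microRNA probe sets with 1 symbol, 211 were at or above it, from 24333 probe sets in all, and each symbol had 1 probe set. The cows of the niacin group (n = 9) ate silage-based mixed rations to which rumen-protected niacin was added, starting 3 weeks ahead of expected calving. The dose was 79 mg per kg of body weight, and the control group (n = 9) ate these rations with none added. Per the labels this dose equals 47 mg per kg at the duodenum, with 31 mg per kg estimated to be absorbable. Biopsies were taken 1 week after calving and total RNA was isolated on a silica column, 1 array per cow. The submitters left out the RNA samples of lowest integrity in each group. Age and processing day per cow were not given. All 10 listed hepatocyte markers passed the limit, led by ALB at 13.45 in control and 13.44 in niacin cows.

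A microRNA is cut from a hairpin in a longer primary transcript by DROSHA and DGCR8, exported by XPO5, cut again by DICER1 and loaded on an Argonaute protein, where its seed pairs with messenger RNAs and lowers their stability and translation. Many hairpins lie in introns of other genes, and several can share 1 primary transcript. In liver, miR-122 is the most abundant microRNA of hepatocytes and acts in cholesterol and lipid metabolism, and miR-192 is another microRNA enriched in hepatocytes. The probe sets read the hairpin in RNA from a column made mainly for longer RNA, so a value here need not follow the mature microRNA. Whether a probe set reads the primary transcript, the precursor or a host messenger RNA was not tested. Values are log2 expression after RMA, on which a difference of 1 is a doubling, and RMA adjusts the arrays to similar distributions. An order of levels between probe sets also carries differences in probe affinity and is given as a description.

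The 211 members had a median level of 5.43 with quartiles of 4.91 and 6.23, against a median of 6.20 for the 18250 probe sets past the same limit. Of the members, 22 had a mean over 7 and 65 a mean under 5. The brightest 10 all carried numbers from 2284 to 2489, a block of microRNA numbers in which many were first described in cattle. MIR2350, inside the span of the membrane-shaping gene BIN1, stood first at 10.01 and was followed by MIR2373 (8.54), MIR2315 (8.48), MIR2348 (8.41) and MIR2332 (8.24). The other 5 were MIR2443 (8.20), MIR2474 (8.15), MIR2311 (8.02), MIR2404-2 (7.95) and MIR2411 (7.90). Of 194 probe sets with such numbers 98 (50.5%) were members, with a median level of 5.70, and of the 334 others 113 (33.8%) were, with a median of 5.27. Just inside the limit lay MIR615 (4.36), MIR2342 (4.36) and MIR2331 (4.38), and just outside it MIR1584 (4.34), MIR455 (4.33) and MIR1835 (4.30).

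**Figure D1:**
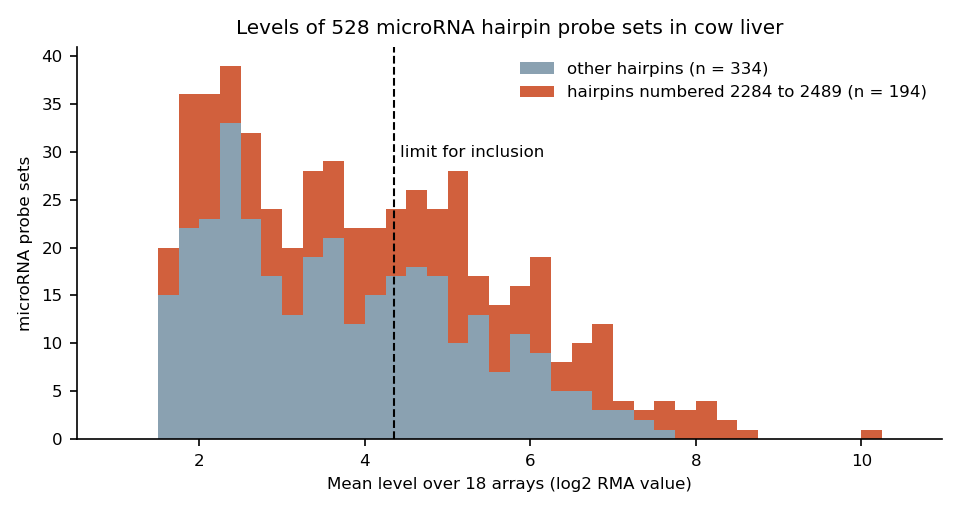
Histogram of the mean log2 RMA value over 18 arrays for 528 microRNA probe sets (stacked bars, bin counts), with the limit for inclusion at 4.35 as a dashed line. The 211 members lie to the right of the line, and the 10 highest means all belong to hairpins numbered 2284 to 2489.

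Probe sets for microRNAs known for 1 tissue or cell type are given by their levels, as a description. Among hepatocyte microRNAs MIR122 was at 5.89, MIR192 at 5.22 and MIR885 at 6.63, while MIR194-2 was at 2.70 and below the limit. MIR148A at 2.14, MIR22 at 4.19, MIR21 at 3.85 and MIR33A at 3.70 were below it too, although the mature forms are well known in liver. MIR124A-2 (6.11) and MIR9-1 (4.50), known from neurons, and MIR375 (5.30), known from pancreatic islets, were members. None of 8 probe sets for muscle microRNAs was a member. Of the blood cell microRNAs MIR150 (5.40) was a member, and MIR142 (3.64), MIR223 (3.11), MIR155 (2.26) and MIR146A (2.48) were not. The red cell microRNA MIR486 (6.14) was a member, while MIR451 (2.27), MIR144 (1.97) and the endothelial MIR126 (2.57) were below the limit. Neighbours from 1 genomic cluster also differed, as MIR27B at 5.14 lay beside MIR23B at 2.45 and MIR24-1 at 2.46. Likewise MIR23A was at 4.90, MIR27A at 3.61 and MIR24-2 at 1.83.

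The spread between cows was described by the SD within groups, which ranged from 0.098 to 0.92 with a median of 0.26 over the members, against 0.20 over all probe sets tested. An SD over 0.5 was found in 9 members (4.27%), against 2.87% of all probe sets tested. MIR877 varied most, at 0.92. In human, miR-877 is a mirtron, released by splicing of an ABCF1 intron, and here too it lay within ABCF1. Its values ran from 2.14 to 5.85 in control cows (median 5.42) and from 3.71 to 5.75 in niacin cows (median 4.90). Control 42 was far below all other cows, and the log2 difference of -0.02 between the groups became -0.35 without it. MIR122 had the next largest SD, 0.69, followed by MIR2359 (0.62), MIR1291 (0.62), MIR2411 (0.59), MIR192 (0.58) and MIR2450B (0.56). MIR421 (0.52), MIR2367 (0.50) and MIR2369 (0.50) completed the 10 most variable members. Of the 3 hepatocyte microRNAs among the members, MIR122 and MIR192 were among these 10, and MIR885, with an SD of 0.31, was not.

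**Figure D2:**
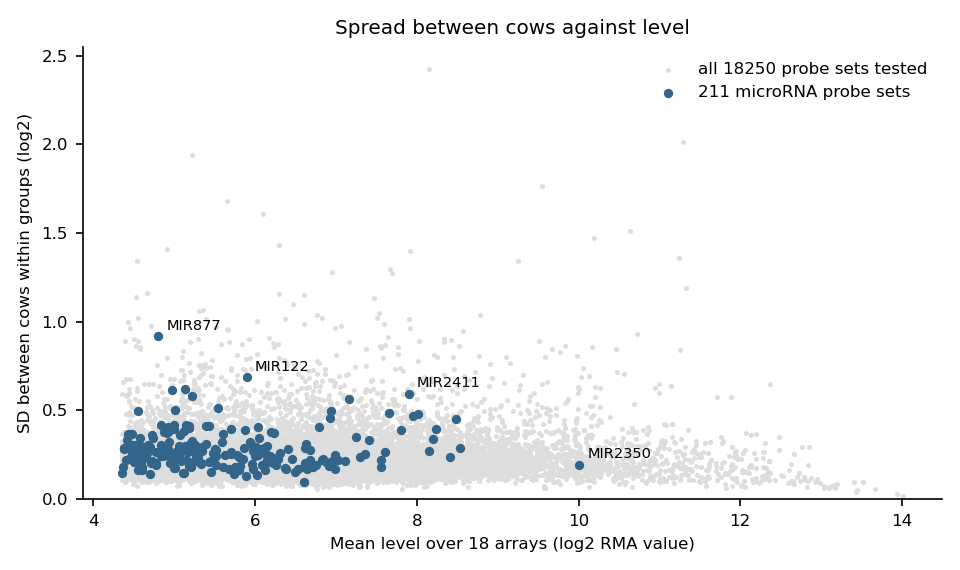
SD between cows within groups (log2, vertical axis) against the mean log2 RMA value over 18 arrays (horizontal axis), with 211 microRNA probe sets in blue and all 18250 probe sets tested in grey. MIR877 stands highest among the members at 0.92 and MIR122 next at 0.69, while the brightest member, MIR2350, has an SD of 0.19.

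The members were also summarised per cow. The mean of the 211 members in a cow ran from 5.58 to 5.80 in control cows (median 5.75) and from 5.49 to 5.97 in niacin cows (median 5.61), so the groups overlapped widely, and the exact permutation test of the difference of -0.034 gave p = 0.594. It followed the lower quartile of all probe sets on the same array. Over 18 cows, with group means removed, Pearson's r was 0.92 and Spearman's rho 0.93 (adjusted permutation p = 0.00016 over 16 relations), and r was 0.86 without niacin 19 and niacin 39. Both values come from the same array, and the quartile was taken over all 24333 probe sets, the 211 members included. The correlation is therefore given as a description of the arrays. The lower quartile did not separate the groups, at 4.25 to 4.4 in control and 4.27 to 4.46 in niacin cows (exact permutation p = 0.821).

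Between niacin and control cows, 0 of the 211 members passed the adjusted threshold of 0.05, as did 0 of all 18250 probe sets tested (0%), by limma with Benjamini-Hochberg adjustment. The smallest adjusted p among members was 0.453. An unadjusted p under 0.05 was found for 19 members (9.00%), against 7.74% of all probe sets tested. These were 12 lower with niacin (5.69%, against 4.41% of all) and 7 higher (3.32%, against 3.34% of all), shares near those of all probe sets. The median log2 difference of the members was -0.02, against 0.01 over all probe sets tested, with 115 members below 0, 95 above and 1 at 0. A fold of at least 1.2 in either direction was seen in 22 members (10.4%), against 5.21% of all probe sets tested. The 95% interval of a member's difference had a median half-width of 0.24. By the exact permutation test 12 of the 211 members (5.69%) had an unadjusted p under 0.05, 7 lower and 5 higher, all of them among these 19. The share over all probe sets by this test was not computed. Counted anew over the 211 members, an unadjusted p under 0.05 was found for 10 without control 23 and for 10 without niacin 15, of which 9 and 10 were among the 19. Of the 19 themselves, 11 kept it without control 36, and 13 to 18 without any 1 of the other 15 cows. On the lower side the new count was 5 without control 23 and 7 without niacin 15. On the higher side it was 2 without control 1 or niacin 39, 3 without niacin 15 or niacin 19, and 4 without niacin 33, of which 3 were among the 7. Which microRNAs these were is described next by size, and none of them passed the adjustment.

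**Figure D3:**
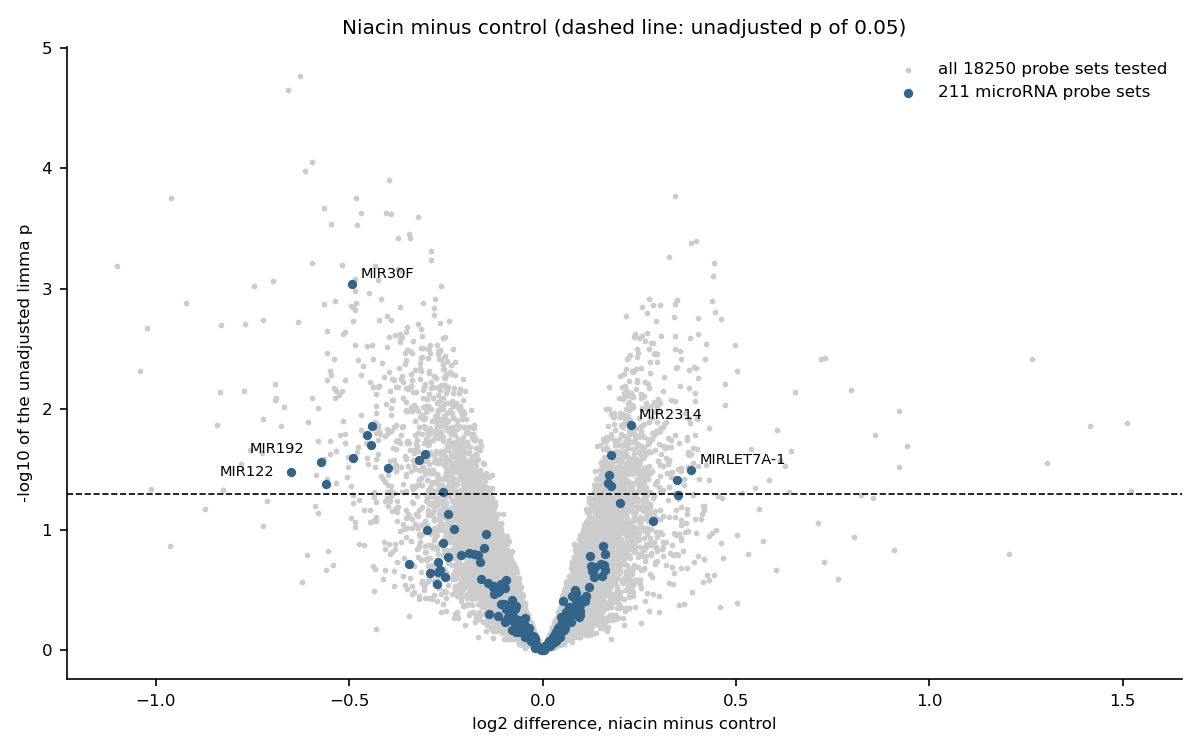
Log2 difference, niacin minus control (horizontal axis), against -log10 of the unadjusted limma p (vertical axis) for 211 microRNA probe sets in blue and all 18250 probe sets tested in grey, with the dashed line at an unadjusted p of 0.05. Above the line lie 12 members on the lower and 7 on the higher side, with MIR122 farthest to the left at -0.65 and MIR30F highest.

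MIR122 and MIR192, 2 of the 3 hepatocyte microRNAs among the members, had the largest differences of all members, both lower with niacin. MIR122 ran from 4.91 to 7.04 in control cows (median 6.26) and from 4.38 to 6.71 in niacin cows (median 5.63). The groups overlapped, and 8 of 9 niacin cows lay below the control median. Its means were 6.22 ± 0.71 and 5.57 ± 0.67 (SD, n = 9 each), a fold of 0.637. The log2 difference was -0.65 ± 0.29 (SE; exact permutation p = 0.0620; limma adjusted p = 0.603). It was between -0.81 and -0.50 on leaving out any 1 cow, and -0.49 without both control 1 and niacin 8. MIR192 ran from 4.74 to 6.91 in control (median 5.48) and from 4.44 to 5.54 in niacin cows (median 4.88), with 7 of 9 niacin cows below the control median. Its log2 difference was -0.57 ± 0.24 (SE; exact permutation p = 0.0489; limma adjusted p = 0.592), and -0.40 without control 23, the highest cow. The third hepatocyte microRNA, MIR885, which lies within the calcium pump gene ATP2B2, differed by less than 0.01, with a 95% interval of -0.28 to 0.28. In bulk tissue fewer cells of a type and less RNA per cell cannot be told apart.

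Markers of other cells in the biopsy were read beside these values. Of 31 listed markers of macrophages, neutrophils, T and NK cells and B and plasma cells, 29 were tested. With niacin 9 of the 29 were higher at an unadjusted p under 0.05, against 3.34% of all probe sets tested, and 0 were lower, against 4.41% of all. The 9 were 4 macrophage, 2 neutrophil and 3 T and NK cell markers. None was among the 5 tested B and plasma cell markers. Of these 2 lay above and 3 below 0, with a difference of -0.06 in their mean. Of the macrophage markers 9 lay above 0 and 1 below it (MARCO at -0.32). All 7 neutrophil markers lay above 0, and of the T and NK cell markers 6 lay above and 1 below it (CD3G at -0.02). The mean of all 29 tested markers ran from 6.42 to 6.81 in control and from 6.61 to 7.10 in niacin cows. Its difference was 0.17 (exact permutation p = 0.0238). The lists were chosen with earlier results of these data known, so the p of this mean is given as a description. With that mean as a covariate, the log2 difference of MIR122 was -0.26 instead of -0.65 and that of MIR2303 -0.23 instead of -0.45. That of MIR664A was -0.16 instead of -0.32, while MIR192 was at -0.54 and MIR30F at -0.48. The unadjusted limma p in this fit was 0.402 for MIR122, 0.235 for MIR2303 and 0.281 for MIR664A. For MIR192 it was 0.0792 and for MIR30F 0.00562. On the higher side MIRLET7A-1 was at 0.58 instead of 0.38. Over cows, with group means removed, MIR122 and the leukocyte mean had r = -0.49 and rho = -0.47 (permutation p = 0.0460, adjusted p = 0.240 over 16 relations; r = -0.39 without control 1 and niacin 8). The r was -0.12 within control and -0.85 within niacin cows, and the part of leukocytes in these results was not tested. Of 6 red cell markers 5 lay above and 1 below 0, and 0 had an unadjusted p under 0.05 (7.74% of all). Their mean ran from 4.87 to 5.65 in control and from 4.96 to 7.23 in niacin cows, a difference of 0.26. The list means differed by 0.03 for endothelial and for stellate cell and fibroblast markers, -0.06 for bile duct and 0.10 for muscle. The part of these cells was not tested either. Of the 10 hepatocyte markers, 3 (APOA1, APOB and AHSG) had lower values at an unadjusted p under 0.05, against 4.41% of all probe sets tested, and none had higher ones, against 3.34%. The median log2 difference of the list was -0.04. MIR122 and MIR192 varied together over cows, with r = 0.62 and rho = 0.64 after group means were removed (permutation p = 0.0082 and 0.0078; r = 0.50 without control 23 and control 42). This pair was computed beside 26 pairs of neighbours described below, over which its adjusted p was 0.0316. The r was 0.79 within control and 0.36 within niacin cows, a difference that was not tested. MIR885 was not tested against either of them.

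MIR30F, of the miR-30 family by name, had the smallest p. It ran from 4.58 to 5.51 in control cows (median 4.97) and from 4.07 to 4.83 in niacin cows (median 4.53). All 9 niacin cows lay below the control median, and the ranges overlapped between 4.58 and 4.83. Its fold was 0.710 and its log2 difference -0.49 ± 0.13 (SE; exact permutation p = 0.0026; limma adjusted p = 0.453), and between -0.54 and -0.42 on leaving out any 1 cow. Other members of the family had intervals that included 0, with MIR30A at -0.10 (-0.44 to 0.25) and MIR30E at -0.06 (-0.29 to 0.16). MIR30F's level of 4.70 was close to the limit of 4.35.

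MIR27B and MIR2475 lie in 1 genomic cluster within the aminopeptidase gene AOPEP, and MIR23A belongs to the paralogous cluster. The miR-23 and miR-27 families are known for control of lipid metabolism genes and of endothelial growth. MIR27B ran from 4.87 to 5.80 in control (median 5.35) and from 4.23 to 5.55 in niacin cows (median 4.96), with a log2 difference of -0.44 ± 0.18 (SE; exact permutation p = 0.0395; limma adjusted p = 0.559). MIR2475 ran from 7.30 to 8.50 in control (median 7.91) and from 6.70 to 8.17 in niacin cows (median 7.31), with a difference of -0.49 ± 0.20 (SE; exact permutation p = 0.0510; limma adjusted p = 0.588). In each, 4 niacin cows lay below all control cows and the others among them. MIR23A was at 4.75 ± 0.30 in niacin against 5.05 ± 0.26 in control cows (SD, n = 9 each), a difference of -0.31, with 8 of 9 niacin cows below the control median. AOPEP itself differed by -0.07 ± 0.16 (SE), and ran from 4.28 to 5.74 in control and from 4.35 to 5.24 in niacin cows.

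**Figure D4:**
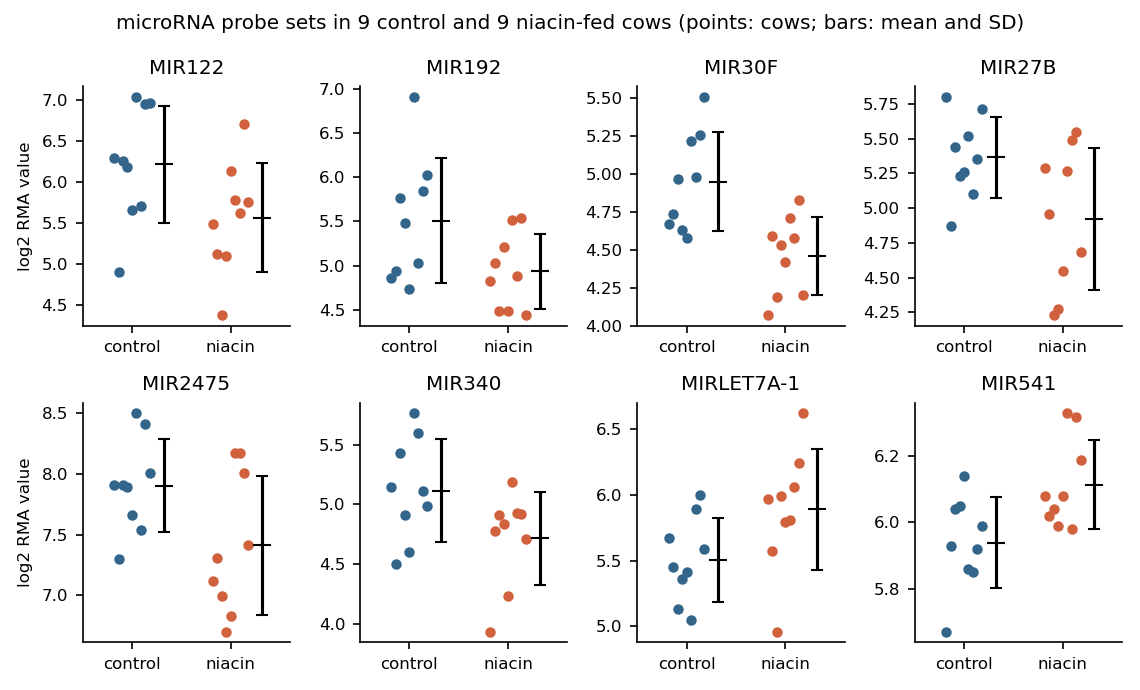
Log2 RMA values of 8 microRNA probe sets in 9 control and 9 niacin-fed cows (1 point per cow, bars for mean and SD; vertical axes differ and do not start at 0). The groups overlap in every panel, with niacin means lower in the first 6 and higher for MIRLET7A-1 and MIR541.

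MIR340 lies within RNF130, a ubiquitin ligase gene, and the pair had differences of opposite sign. MIR340 ran from 4.50 to 5.76 in control (median 5.11) and from 3.94 to 5.19 in niacin cows (median 4.84), a log2 difference of -0.40 ± 0.17 (SE; exact permutation p = 0.0551; limma adjusted p = 0.595). RNF130 ran from 8.66 to 8.92 in control (median 8.81) and from 8.80 to 9.33 in niacin cows (median 9.10), a difference of 0.28 ± 0.07 (SE; exact permutation p = 0.0010; limma adjusted p = 0.453). For RNF130, 7 of 9 niacin cows lay above every control cow. Over cows, with group means removed, the r of the pair was -0.19 (rho -0.12), with permutation p = 0.465, and 0.01 without niacin 3 and niacin 8.

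The other 5 members on the lower side lie within protein-coding genes. MIR2359, within IL6ST, the shared signalling receptor of interleukin-6, had a log2 difference of -0.56, or -0.42 without control 23. MIR2303 within CDC16, a subunit of the anaphase-promoting complex, had a difference of -0.45, MIR2461 within the heparan sulfate enzyme gene NDST1 -0.44, MIR664A within the telomerase and snoRNA protein gene DKC1 -0.32 and MIR2439 within MRTFA -0.26. These host genes differed by 0.04 (IL6ST), 0.06 (CDC16), -0.11 (NDST1), 0.02 (DKC1) and 0.11 (MRTFA). MIR664A was below the control median in all 9 niacin cows, at a level of 4.47 near the limit.

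On the higher side, the let-7 family, which represses growth and cell cycle genes, gave 2 of the 7 members. MIRLET7A-1 ran from 5.05 to 6.0 in control (median 5.45) and from 4.96 to 6.62 in niacin cows (median 5.97), 1.31-fold higher, with a log2 difference of 0.38 ± 0.17 (SE; exact permutation p = 0.0564; limma adjusted p = 0.603). Niacin 8 held the lowest value of all cows, and the other 8 niacin cows lay above the control median. MIRLET7I ran from 5.42 to 5.78 in control (median 5.55) and from 5.53 to 6.21 in niacin cows (median 5.77), a difference of 0.18, or 0.12 without niacin 40. Of 10 let-7 probe sets 5 were members, with differences from 0.04 to 0.38. MIRLET7G was at 0.11 and MIRLET7D and MIRLET7E at 0.04 each, with intervals that included 0, and MIRLET7D was at -0.02 without control 16 and at -0.01 without control 1 and niacin 8. Without control 36, MIRLET7G was at 0.21 with an unadjusted limma p of 0.0454. MIRLET7A-1 and its neighbour MIRLET7D had r = 0.04 over cows (rho 0.02; permutation p = 0.885).

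The other 5 members on the higher side had differences from 0.17 to 0.35. MIR541, of the large imprinted microRNA cluster beside DLK1 and DIO3, ran from 5.67 to 6.14 in control (median 5.93) and from 5.98 to 6.33 in niacin cows (median 6.08). All 9 niacin cows lay above the control median, at a log2 difference of 0.18 ± 0.07 (SE; exact permutation p = 0.0141; limma adjusted p = 0.576). Its cluster neighbours MIR453 (0.16), MIR134 (-0.04) and MIR758 (-0.05) had intervals that included 0. MIR371, known from human embryonic stem cells, had a difference of 0.17 and MIR769 of 0.17. MIR2314, within the Hippo pathway factor gene TEAD1, had a difference of 0.23. MIR2349, within CYTH1, had a difference of 0.35, or 0.23 without control 20, at a level of 4.48 near the limit.

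Among members fixed by name for liver metabolism, intervals included 0 for MIR107, within PANK1, which encodes a pantothenate kinase of coenzyme A synthesis, at 0.00 (95% interval -0.34 to 0.34). MIR185 was at -0.11 (-0.48 to 0.25), MIR370 at 0.12 (-0.06 to 0.30), MIR26A-1 at 0.10 (-0.17 to 0.37) and MIR101-1 at -0.05 (-0.27 to 0.16). Of the blood and stromal microRNAs, MIR150 was at -0.06, the red cell microRNA MIR486 at 0.06, MIR143 at -0.11 and MIR214 at -0.05. With the leukocyte mean as a covariate MIR150 was at 0.16, MIR143 at 0.13, MIR214 at 0.08 and MIR486 at 0.07, and MIR150 was at 0.03 without niacin 33. Intervals that include 0 do not show that the groups were alike, and those of MIR107, MIR185, MIR370, MIR26A-1 and MIR101-1 each reach 1.2-fold on at least 1 side.

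Hairpins that lie close together varied together in some clusters and not in others. With neighbours defined by less than 10000 bases between hairpins in the ARS-UCD2.0 gene table, 12 clusters held at least 2 members and gave 26 pairs. The correlation over 18 cows with group means removed ranged from -0.28 to 0.92 with a median of 0.25, and 6 pairs passed an adjusted permutation p of 0.05. For comparison, the 22155 pairs of all members had a median r of 0.24, with quartiles of 0.04 and 0.42. The 3 pairs among MIR2450A, MIR2450B and MIR2450C, inside the huntingtin gene HTT, had r = 0.92, 0.89 and 0.79, with rho = 0.89, 0.82 and 0.75 (adjusted permutation p of at most 0.00216). Without the 2 farthest cows r was 0.88, 0.83 and 0.69. All 3 hairpins had differences with niacin near -0.3, with intervals that included 0. MIR2475 and MIR27B had r = 0.77 and rho = 0.80 (permutation p = 0.0013, adjusted p = 0.0073; r = 0.69 without niacin 8 and niacin 14). MIR181C and MIR181D had r = 0.76 (rho 0.85; adjusted permutation p = 0.00587; r = 0.67 without niacin 3 and niacin 39). MIR15A and MIR16A, known as tumour suppressors in human, had r = 0.67 (rho 0.61; adjusted permutation p = 0.0189; r = 0.55 without niacin 14 and niacin 15). By contrast MIR106B and MIR25, which share 1 primary transcript in human, had r = 0.15 (rho 0.17; permutation p = 0.570), and MIR191 and MIR425 had r = -0.19 (rho -0.25; permutation p = 0.404). Whether probes of such neighbours share sequence was not tested.

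**Figure D5:**
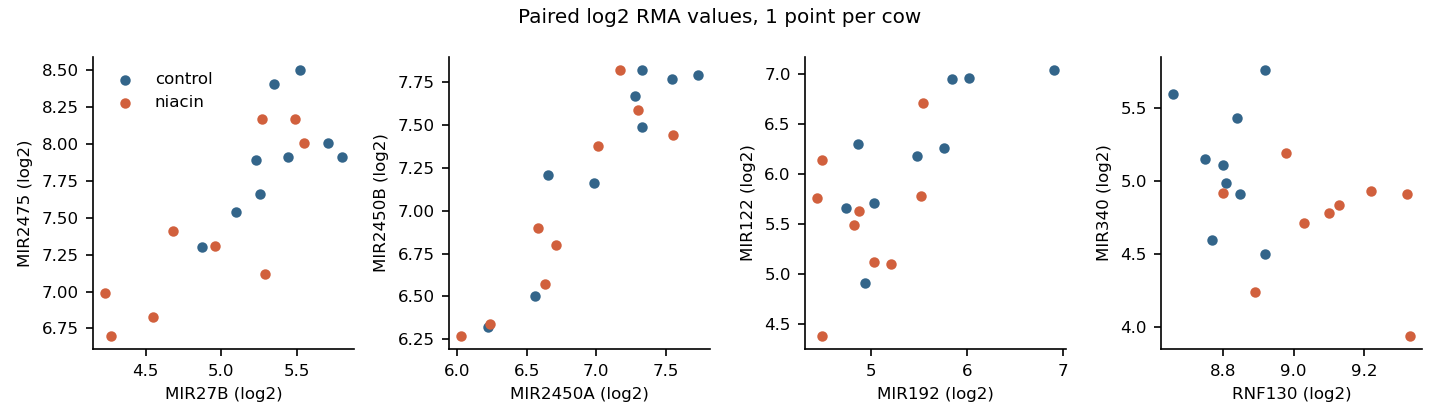
Log2 RMA values of 4 pairs, 1 point per cow (control blue, niacin orange). The genomic neighbours MIR27B and MIR2475 (r = 0.77 with group means removed) and MIR2450A and MIR2450B (r = 0.92) have high values in the same cows, as do MIR192 and MIR122 (r = 0.62), and MIR340 is drawn against its host RNF130 (r = -0.19).

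The hairpins were also set against the genes that hold them. Of the 211 members, 166 lay within the span of at least 1 other gene, 142 of them assigned to a protein-coding host, and 116 had a host with a probe set past the limit. The correlation of these 116 pairs over 18 cows ranged from -0.66 (MIR148B with COPZ1) to 0.63 (MIR2486 with GPKOW), with a median of 0.05. By the permutation test 0 pairs passed after adjustment over the 116, and 16 had an unadjusted p under 0.05 (10 positive, 6 negative). The share over other pairs of probe sets was not computed. The 116 pairs held 107 host genes, so some pairs shared a host. Both MIR2475 and MIR27B were set against AOPEP, with r = 0.55 (rho 0.52; adjusted p = 0.311) and r = 0.32 (rho 0.32; adjusted p = 0.499). The table gives no strand, so a hairpin on the strand opposite to its host is counted too. Of the 107 host genes, 6 had an unadjusted limma p under 0.05 (5.61%, against 7.74% of all probe sets tested), 4 higher and 2 lower with niacin, and 0 passed the adjustment.

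Genes that make, load and degrade microRNAs were read from the same arrays. Of 35 listed genes 30 were tested, with 21 below 0 and 9 above it. Their median log2 difference was -0.07, against 0.01 over all probe sets tested, of which 45.8% were below 0. At an unadjusted p under 0.05, 3 of the 30 were lower, against 4.41% of all probe sets tested, and 0 were higher, against 3.34%, and 0 passed the adjustment. TNRC6A, the GW182 scaffold that joins Argonaute to deadenylases, ran from 6.99 to 8.40 in control (median 7.82) and from 6.82 to 8.02 in niacin cows (median 7.31), with a log2 difference of -0.53 ± 0.18 (SE; exact permutation p = 0.0185; limma adjusted p = 0.476). TENT2, the nucleotidyltransferase that adds an adenosine to mature miR-122 in human and mouse liver, ran from 7.45 to 8.14 in control (median 7.64) and from 7.12 to 7.68 in niacin cows (median 7.43), a difference of -0.25 ± 0.09 (SE; exact permutation p = 0.0064; limma adjusted p = 0.502). XRN1, an exonuclease that degrades decapped RNA, was below the control median in all 9 niacin cows, at -0.23. Both TNRC6A and TENT2 had 8 of 9 niacin cows below the control median.

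Known targets of liver microRNAs were read as well. Over 6 target lists taken from human or mouse work, 54 of 58 genes were tested. At an unadjusted p under 0.05 there was 1 of the 54 on the higher side and 0 on the lower, fewer than the 3.34% and 4.41% of all probe sets tested, and 0 passed the adjustment. That gene was ALDOA, aldolase A of glycolysis, a target of miR-122. It ran from 7.68 to 8.19 in control (median 7.89) and from 7.72 to 8.85 in niacin cows (median 8.34), 1.32-fold higher, with a log2 difference of 0.40 ± 0.12 (SE; exact permutation p = 0.0056; limma adjusted p = 0.453), and 7 of 9 niacin cows lay above every control cow. Among the other 8 tested targets of miR-122, 4 were above and 4 below 0, and ADAM17 (0.11) had the next smallest p, an unadjusted limma p of 0.171. Over cows MIR122 and ALDOA had r = -0.43 (rho -0.31; permutation p = 0.0754, adjusted p = 0.241; r = -0.36 without niacin 8 and niacin 15), a pair chosen after the difference was seen. Its r was 0.07 within control and -0.78 within niacin cows, a difference that was not tested. MIR122 and TENT2 had r = -0.14 (rho -0.12; permutation p = 0.583, adjusted p = 0.718), with 0.30 within control and -0.72 within niacin cows. The median difference was 0.04 for the miR-122 targets, -0.02 for miR-33, -0.08 for miR-21, -0.09 for miR-29, -0.05 for let-7 and -0.01 for miR-34 targets. Of the miR-34 targets, which include the NAD genes NAMPT (0.12) and SIRT1 (-0.17), 0 of 10 had an unadjusted p under 0.05, and MIR34A itself was below the limit at 3.44.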

How the data were processed

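The authors deposited log2 values per probe set, for which the submitters' processing notes name Affymetrix Expression Console and RMA without versions. That they are log2 was read from their range (0.85 to 14.04). Members, lists and tests were chosen with earlier results of these data known. Symbols came from the platform annotation, and 36 probe sets with a microRNA among several symbols were left out. Gene IDs of all 528 matched the RefSeq table (ARS-UCD2.0), which was used only for hosts and neighbours. It gives no strand, so hosts were taken on either strand where the same strand had been planned. If several genes held a hairpin, genes with a probe set came first, then protein-coding genes, then the shortest. No table of sequences was used.

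The 18250 probe sets past the limit were fitted with limma 3.58.1 (R 4.3.3, lmFit and eBayes, niacin minus control, Benjamini-Hochberg, two-sided). The exact two-sided permutation test used all 48620 splits of the arrays into 9 and 9. Correlations over cows used deviations from group means and 100000 permutations within groups (Python 3.11.15), adjusted within each family. Scripts were tested on simulated data. The number of arrays limits the precision. The labels give cows as separate animals, with no pairing and no batch.

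Named members were the 10 brightest, the 10 most variable, those with an unadjusted p under 0.05, the 3 just past the limit, microRNAs fixed by name, and their neighbours and hosts. MIR885, MIR30E, MIRLET7E, the microRNAs below the limit, the tissue microRNAs of neuron and pancreas, and the extreme or contrasting pairs (MIR148B, MIR2486, MIR181C, MIR181D, MIR15A, MIR16A, MIR106B, MIR25, MIR191, MIR425) lay outside this rule and were chosen after values were seen.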

Additional observations from a re-analysis of the deposited data

Results flagged for a closer look

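In 8 of 112 groups of 9 values (56 named members in both groups), 1 cow stood apart from the rest by Dixon's gap ratio at its 95% critical value. About 1 in 20 groups does so by chance, which is 5.6 here, and the values come from the same 18 cows. The named members include the 10 most variable and those with a small p. That rate need not apply to them, so no conclusion is drawn from the 2 counts. Control 42 had MIR877 at 2.14, with the next control cow at 4.12. Control 1 had MIR2350 at 9.50 (next 9.89) and MIR2443 at 7.42 (next 8.04). Control 36 had MIRLET7G at 5.64 (next 5.05) and MIR23A at 4.48 (next 4.96). Niacin 40 had MIRLET7I at 6.21 (next 5.81) and MIR2378 at 3.71 (next 4.37), and MIR2378 lies beside MIR877. Niacin 8 had MIR769 at 5.09 (next 5.45). The difference of MIR769 was 0.17 with this cow and 0.23 without it, and that of MIRLET7G was 0.11 with control 36 and 0.21 without it.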

How the results depend on the processing

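No paired analysis was run because the labels give no pairing of cows between the groups, whose cow numbers do not overlap. Under every alternative run, 0 members passed the adjusted p. The named members thus stayed on the same side of it in 1534 of 1534 comparisons, a count that follows from the 0 and measures no stability. The 19 members with an unadjusted p under 0.05 kept their sign under leaving out any 1 cow, median centring and the leukocyte covariate. Of these 19, 5 kept an unadjusted p under 0.05 whichever 1 cow was left out. Counted anew over all members, there were 10 (5 lower) with control 1 and niacin 8 both left out, 9 (4 lower) with the leukocyte score as covariate, 12 (7 lower) with no moderation, 6 (4 higher, 2 lower) among the members past the 50th percentile, and 4 (2 higher, 2 lower) among the 45 members outside any host span, the last 2 with fewer members by construction. Of the original 19, 9 (5 lower) kept an unadjusted p under 0.05 without these 2 cows and 6 (2 lower) with the leukocyte score. For the first 3 settings the cause was not tested. Array weights gave 4 higher. Leaving out each cow gave 10 to 23 in all, 2 to 9 higher and 5 to 16 lower, with 0 past the adjustment, and a median difference of -0.04 to 0.01. With the lower quartile of each array as a covariate, an alternative chosen after seeing the data, there were 25 (9 higher, 16 lower), with all 19 of the original members among them. The median difference of -0.02 was 0.04 with the leukocyte covariate, 0.01 past the 50th percentile and 0.03 outside host spans. Counting every probe set of a symbol, or leaving out symbols that are no microRNA, changed nothing because no such case occurred.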
